A study of Mus musculus with 30 samples.

Results

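Esr1, Pgr, Prlr, Foxa1, Gata3, Cited1 and Tbx3 are the receptors and transcription factors through which the mammary epithelium receives estrogen, progesterone and prolactin. They were chosen by name, and all 7 were found among the 11137 genes of the deposited expression table. The table comes from a study of the receptor Rank (gene Tnfrsf11a) in the mouse mammary gland, in which 3′ end RNA-seq libraries were made from sorted luminal and basal cells. There were 30 libraries from 17 female mice, 15 luminal and 15 basal, and 13 mice gave both.

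All mice carried K8rtta:TET-O-CRE:Rosa mT/mG, a system in which the keratin 8 promoter, active in luminal cells, drives a doxycycline-dependent Cre and a switch from tdTomato to GFP. K8imTmG mice are the controls with intact Rank, and K8iΔRank mice also carried Rank fl/fl alleles. Both received doxycycline at 1 mg/ml in drinking water, from week 3 to week 8 of age by the labels and for 4 weeks from week 4 by the study's methods. Mice were virgin or parous, and parous glands were taken 30 days after involution began. In parous K8imTmG mice the pups had been removed on lactation day 10, whereas K8iΔRank mothers lost their litters at lactation day 1, so that the parous groups differ in lactation as well as in genotype. Luminal cells were sorted as GFP-positive, CD24-high and CD49f-low, and basal cells, which keep Rank in K8iΔRank mice, as CD24-low and CD49f-high. In luminal cells there were 3 virgin K8imTmG, 3 virgin K8iΔRank, 5 parous K8imTmG and 4 parous K8iΔRank libraries. In basal cells these numbers were 3, 4, 4 and 4. Within a lineage each library is 1 mouse, so that n counts mice and p-values measure the spread between mice. The main comparison of the lineages treated its 30 libraries as independent, although 13 mice gave 1 of each lineage. There the mouse entered as a block only in an alternative fit.

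The adult luminal layer holds hormone-sensing cells, which carry the receptors for estrogen and progesterone, and hormone-receptor-negative progenitors and alveolar cells, which do not. Hormone-sensing cells answer estrogen and progesterone by releasing signals such as amphiregulin, Wnt4 and Rank ligand that act on their neighbors. Prolactin acts directly on luminal cells through its receptor and Stat5, and is needed for milk secretion. In these bulk libraries fewer hormone-sensing cells and less RNA per cell cannot be told apart, which holds for every level below.

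Values are normalized counts, that is, molecules counted at transcript ends divided by a library size factor. Depth was 340445 to 3130419 reads per library, and 1 read was worth 0.381 to 5.43 normalized counts. Of the 210 member values 11 rested on 3 reads or fewer, all of them for Prlr, Foxa1 or Cited1 in basal libraries. Sums of other cells' markers in luminal libraries were 3.20 to 32.7 for the 3 of 7 immune markers in the table, 8.82 to 65.5 for 4 endothelial and 98.4 to 957 for 6 fibroblast markers, the last reaching into the basal range of 550.2 to 1003. The sum of 7 luminal keratin and adhesion markers was 4612 to 12652 in luminal and 729 to 2005 in basal libraries, and the sum of 8 basal markers was 60.4 to 309 in luminal and 9714 to 16393 in basal libraries, so that the labeled lineages held. Tnfrsf11a itself was 9.57 to 18.6 in virgin K8imTmG and 11.5 to 23.8 in virgin K8iΔRank luminal cells, and 12.8 to 64.9 in parous K8imTmG and 27.0 to 41.1 in parous K8iΔRank luminal cells. A 3′ tag need not lie in the floxed part of the gene, so that genotype is taken from the labels.

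The libraries fell into 2 sets that the labels do not explain. The lectin gene Clec2d was at most 8.68 normalized counts in 16 libraries (Clec2d-low) and at least 65.6 in the other 14 (Clec2d-high), and in 10 of the 13 mice with both lineages the luminal and the basal library lay on opposite sides. In virgin luminal cells the genotypes lay on opposite sides, the 3 K8imTmG libraries being Clec2d-low and the 3 K8iΔRank libraries Clec2d-high. Parous luminal libraries were all Clec2d-low in K8iΔRank (4) and mixed in K8imTmG (3 low, 2 high). The genotype difference in virgin luminal cells and the parity difference in K8iΔRank luminal cells thus cannot be told apart from the side. The same holds for the luminal interaction, the difference between the genotypes in their parity difference. It also holds for the lineage difference within virgin mice of either genotype, whose luminal and basal libraries lay on opposite sides. For the parity difference in K8imTmG and the genotype difference in parous luminal cells, values within the Clec2d-low side are given.

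By their positions in GENCODE vM39 on GRCm39, the members are protein-coding genes on different chromosomes: Esr1 at chr10:4561593-4955626 on the plus strand, Pgr at chr9:8899830-8968612 (plus), Prlr at chr15:10177258-10349959 (plus), Foxa1 at chr12:57587414-57593702 (minus), Gata3 at chr2:9861889-9894845 (minus), Cited1 at chrX:101290985-101295803 (minus) and Tbx3 at chr5:119806298-119822797 (plus). Because 5 of the members, all but Prlr and Cited1, encode factors that bind DNA, the 300 bases from 250 before to 50 after each canonical transcript start were searched on both strands for the sites of such factors. No member held the estrogen response element GGTCANNNTGACC, found in 0.00959% of 10426 promoters, its half-site AGGTCA (12.4%), which overlaps it, the progesterone half-site TGTTCT (12.3%) or the GATA site AGATAA (7.18%). A match was found for the STAT site TTCNNNGAA in Esr1 (7.23% of promoters), the forkhead site TGTTTAC in Foxa1 (2.66%) and the T-box site AGGTGTGA in Prlr (0.729%). The 3 matches are shown on the strand of the gene with the site in capitals, the Foxa1 one being the reverse complement of the letters searched. With the flanking bases shown they span chr10:4659962-4659986, chr12:57593024-57593046 and chr15:10177282-10177305, and the sites in capitals begin 150 and 94 bases before the start of Esr1 and Foxa1 and 32 bases after that of Prlr.
Esr1: ggagtttcTTCTAGGAAtgctgatt
Foxa1: actgctttGTAAACAaagtgagg
Prlr: cccagggaAGGTGTGAttccaatc
A match is a stretch of letters only, and binding was not measured.

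**Figure D1:**
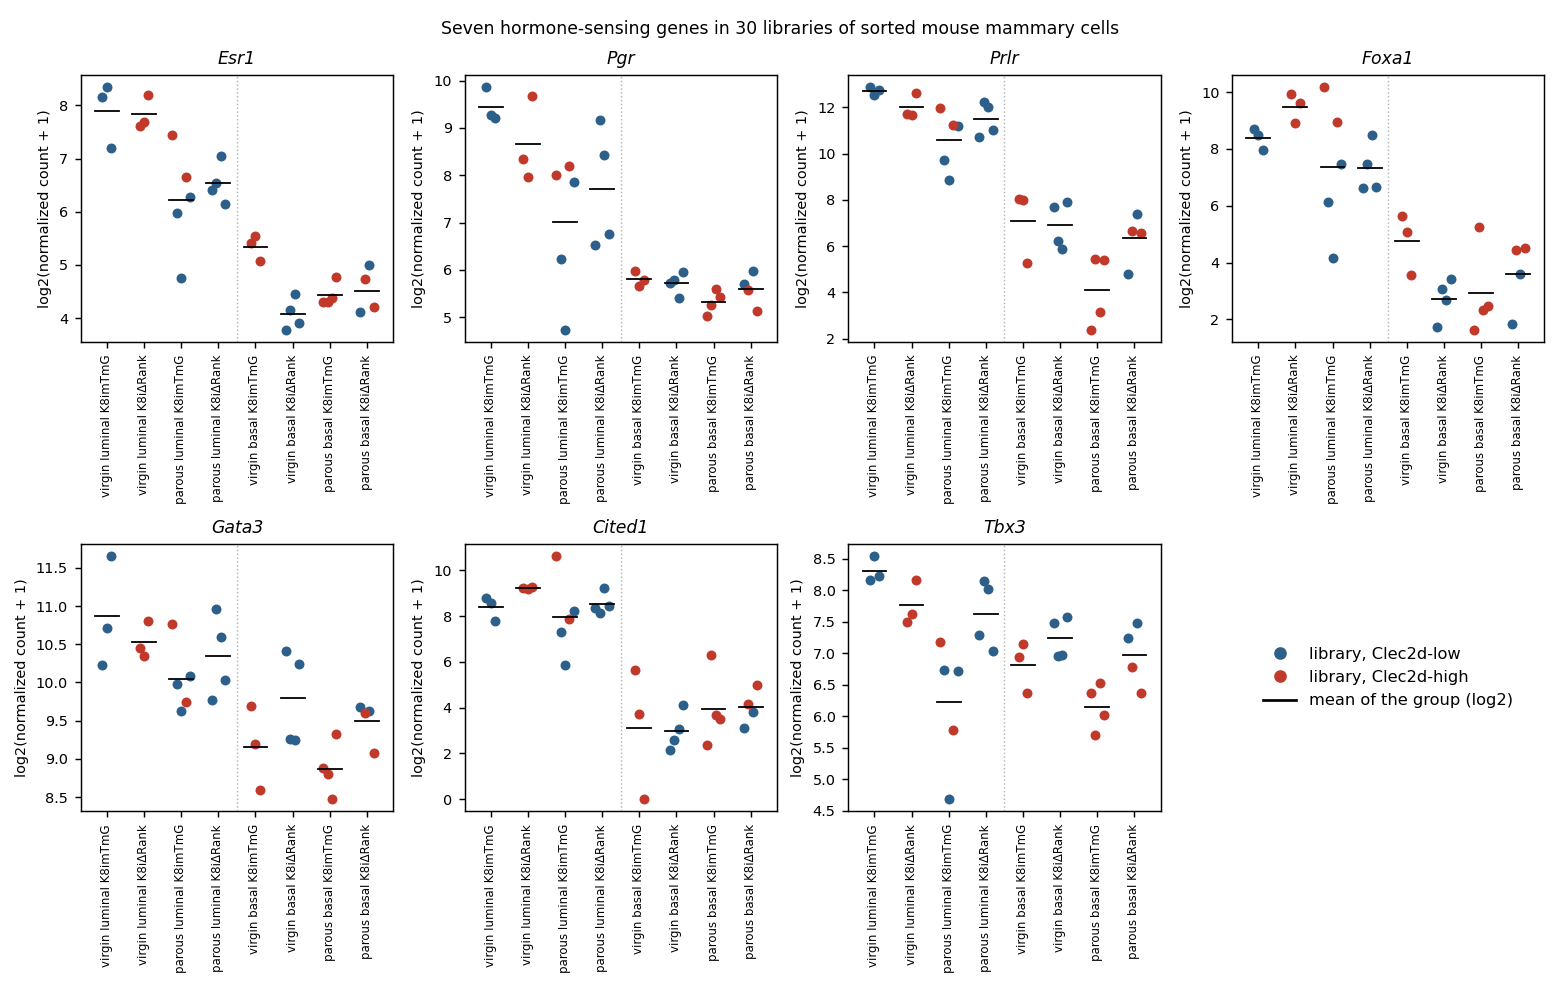
Each panel plots 1 gene, with log2(normalized count + 1) on the y axis and the 8 groups on the x axis. Points are libraries, colored by the side of the Clec2d split, and bars are group means on the log2 scale; the 4 luminal groups on the left sit above the 4 basal groups on the right for Prlr, Esr1, Foxa1, Cited1 and Pgr, while those of Gata3 and Tbx3 approach each other.

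All 7 genes were higher in luminal than in basal cells. Limma compared the 4 luminal with the 4 basal groups, taking log2(normalized count + 1) as the value, with Benjamini-Hochberg adjustment over all genes tested. It called 28.7% of 11133 genes higher in luminal cells, and all 7 members. Libraries of the same mouse were treated as independent in this fit. The median log2 difference of the members was 2.59, against 0.04 over all genes tested.

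Prlr, the prolactin receptor, had the widest difference of the members. It ranged from 464 to 7604 in luminal libraries (median 3377) and from 4.19 to 260 in basal ones (median 72.6), a log2 difference of 5.59 ± 0.37 (SE, limma adjusted p = 1.6e-13). No luminal library came down to the highest basal one. Cited1, a coactivator that binds no DNA and works with the estrogen receptor, ranged from 57.8 to 1583 in luminal and from 0 to 77.6 in basal libraries. Its log2 difference was 5.01 ± 0.46 (SE, limma adjusted p = 1.4e-10). Foxa1, the pioneer factor that opens chromatin for the estrogen receptor, ranged from 16.8 to 1169 in luminal and from 2.09 to 48.8 in basal libraries, a log2 difference of 4.64 ± 0.46 (SE, limma adjusted p = 6.8e-10). The ranges of Cited1 and Foxa1 overlapped through 1 luminal library, that of parous K8imTmG mouse 534.

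Of the steroid receptors, Esr1 (estrogen receptor alpha) ranged from 26.0 to 326 in luminal and from 12.7 to 45.5 in basal libraries, a log2 difference of 2.53 ± 0.19 (SE, limma adjusted p = 2.0e-12). Pgr (progesterone receptor) ranged from 25.6 to 936 in luminal and from 31.4 to 61.8 in basal libraries, a log2 difference of 2.59 ± 0.29 (SE, limma adjusted p = 8.5e-09). Both overlapped between lineages through the same luminal library of mouse 534.

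Gata3 and Tbx3 were shared by the lineages. Gata3, the zinc-finger factor that maintains luminal fate, ranged from 790 to 3223 in luminal and from 354 to 1363 in basal libraries, a log2 difference of 1.12 ± 0.17 (SE, limma adjusted p = 2.1e-06). Tbx3, a T-box repressor needed for forming the mammary placode, ranged from 24.7 to 372 in luminal and from 50.8 to 189 in basal libraries, a log2 difference of 0.68 ± 0.19 (SE, limma adjusted p = 0.0038). Within single conditions Tbx3 passed the test only in virgin K8imTmG mice, at a log2 difference of 1.49 ± 0.43 (SE, limma adjusted p = 0.0057), where 23.2% of genes were called higher. In parous K8imTmG mice its difference was 0.068 ± 0.35 (SE, limma adjusted p = 0.90). Gata3 was not called in virgin K8iΔRank mice, with 0.74 ± 0.35 (SE, limma adjusted p = 0.093). The other 5 members were called in each of the 4 conditions, in which 23.2% (virgin K8imTmG), 19.2% (virgin K8iΔRank), 17.7% (parous K8imTmG) and 13.9% (parous K8iΔRank) of genes were called higher. In virgin mice of both genotypes lineage and Clec2d side coincided, so that the lineage differences there cannot be told apart from the side. Whether the lineage difference of Tbx3 itself differed between conditions was not tested.

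The 13 mice with both lineages gave a paired comparison. In 10 of them the luminal and the basal library lay on opposite sides of the Clec2d split. Luminal exceeded basal in 13 of 13 mice for Esr1, Prlr and Gata3, in 12 for Pgr, Foxa1 and Cited1, and in 11 for Tbx3. With mouse as a block the 7 members were again called, 28.1% of 11064 genes being called higher in luminal cells, and the estimates ran from 0.56 ± 0.15 for Tbx3 to 5.37 ± 0.29 for Prlr (SE). Within the Clec2d-low side, which left 4 parous K8iΔRank luminal and 2 basal libraries, 4 members were called, namely Esr1, Prlr, Foxa1 and Cited1, with 14.9% of genes called higher. Within the Clec2d-high side, which left 2 parous K8imTmG luminal and 4 basal libraries, all but Tbx3 were called, with 9.49% of genes called higher.

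**Figure D2:**
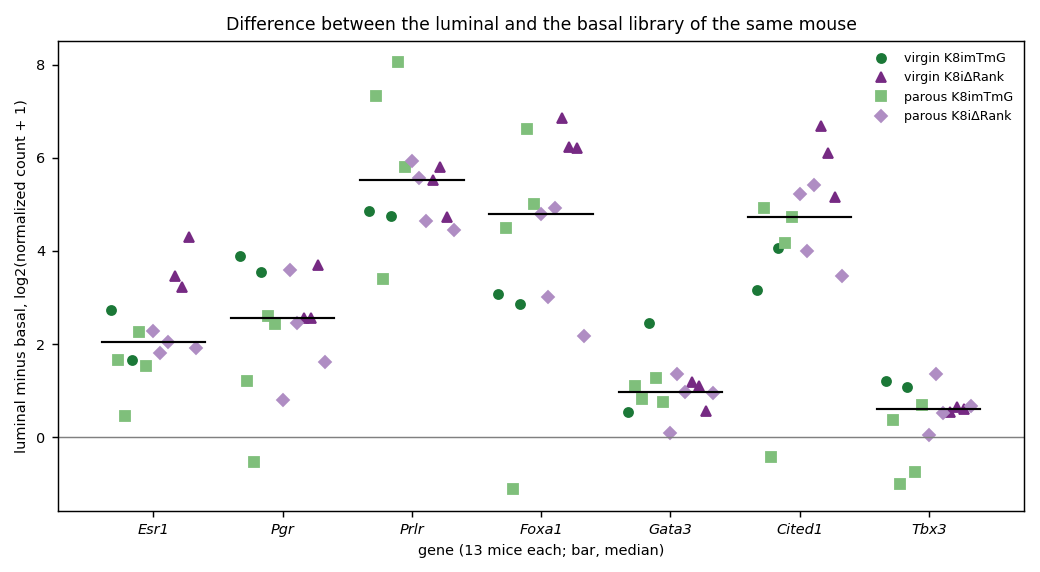
The y axis is the luminal minus the basal value of log2(normalized count + 1) within 1 mouse, and the x axis the gene; each point is 1 of 13 mice, its shape and color give the condition, and bars are medians. Prlr, Foxa1 and Cited1 have medians of 5.52, 4.80 and 4.72, and the parous K8imTmG mouse 534 is the point below 0 for Pgr, Foxa1 and Cited1.

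Mouse 534 stood apart in both of its libraries. Its luminal library had the lowest value of the 15 luminal libraries for all 7 members, with Esr1 at 26.0, Pgr at 25.6, Prlr at 464, Foxa1 at 16.8, Gata3 at 790, Cited1 at 57.8 and Tbx3 at 24.7. Its basal library had the highest Cited1 of the 15 basal libraries, at 77.6, and Foxa1 at 37.4. The luminal marker sum of its luminal library was 4612, the lowest of the 15, its basal marker sum was 73.2, and its progenitor marker sum of 6641 lay within the other parous K8imTmG libraries (6250 to 8021). The basal library had a luminal marker sum of 1022, within the range of the other basal libraries.

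In luminal cells of K8imTmG mice, all 7 members had a lower median in parous than in virgin glands, but none passed the test in the 2-group comparison. This comparison asks what a completed pregnancy, lactation and involution leave behind in cells with intact Rank. It called 1.14% of 10279 genes lower in parous cells. An unadjusted limma p below 0.05 was found for 5 of the 7 members and for 2230 of the 10279 genes. The members' median log2 difference was -1.68, against -0.01 over all genes tested.

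Pgr was 936, 617 and 588 in the 3 virgin K8imTmG luminal libraries and 257, 74.4, 25.6, 294 and 231 in the 5 parous ones. The groups did not overlap, and the log2 difference was -2.44 ± 0.71 (SE, limma adjusted p = 0.099). Prlr was 7604, 5943 and 6867 in virgin and 4067, 835, 464, 2384 and 2331 in parous libraries, again without overlap, with a log2 difference of -2.13 ± 0.63 (SE, limma adjusted p = 0.10). Tbx3 was 285, 372 and 299 in virgin and 144, 105, 24.7, 54.3 and 104 in parous libraries. It did not overlap either, and its log2 difference was -2.09 ± 0.49 (SE, limma adjusted p = 0.060). These 3 members compare with 9.86% of all genes tested whose parous values lay wholly below the virgin ones.

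Esr1 was 283, 326 and 146 in virgin and 173, 62.0, 26.0, 99.1 and 77.0 in parous libraries, a log2 difference of -1.68 ± 0.52 (SE, limma adjusted p = 0.11). The groups overlapped through virgin mouse 538 and parous mouse 494. Gata3 was 1195, 1681 and 3223 in virgin and 1746, 1005, 790, 860 and 1089 in parous libraries, a log2 difference of -0.82 ± 0.37 (SE, limma adjusted p = 0.23). Foxa1 was 417, 358 and 248 in virgin and 1169, 68.8, 16.8, 489 and 178 in parous libraries, spanning both sides of the virgin range, with a log2 difference of -1.01 ± 1.10 (SE, limma adjusted p = 0.62). Cited1 was 445, 382 and 222 in virgin and 1583, 156, 57.8, 233 and 296 in parous libraries, with a log2 difference of -0.42 ± 0.83 (SE, limma adjusted p = 0.80).

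The parous values above the virgin range were those of Clec2d-high mice 494 and 557 for Foxa1 and of mouse 494 for Cited1. Among Clec2d-low libraries alone, 3 virgin and 3 parous, 4 members were lower in parous cells, beside 6.80% of 10014 genes. These were Pgr, at -3.17 ± 0.67 (SE, limma adjusted p = 0.025), Prlr, at -2.81 ± 0.50 (adjusted p = 0.0175), Tbx3, at -2.26 ± 0.51 (adjusted p = 0.030), and Esr1, at -2.23 ± 0.44 (adjusted p = 0.022). Without mouse 534, which left 2 parous libraries, only Tbx3 of the members was called, at -1.58 ± 0.23 (SE, limma adjusted p = 0.043), beside 0.386% of 9852 genes called lower. Prlr was then at -2.28 (adjusted p = 0.053), Pgr at -2.40 (adjusted p = 0.059) and Esr1 at -1.77 (adjusted p = 0.065). With mouse 534 kept, Foxa1 was at -2.47 ± 0.71 (SE, limma adjusted p = 0.057), Cited1 at -1.27 ± 0.54 (adjusted p = 0.16) and Gata3 at -0.97 ± 0.34 (adjusted p = 0.099). With all 15 luminal libraries in 1 fit, Tbx3, Esr1 and Prlr were called lower, at adjusted p of 0.012, 0.030 and 0.032, beside 4.57% of genes. Array quality weights called all 7 lower, beside 20.3% of genes. DESeq2 on recovered reads called 4, beside 4.95%, and edgeR none, beside 1.42%. Without mouse 534 the count was 1, Tbx3 at -1.70, beside 58 of 10196 genes called lower, and Pgr and Prlr moved to -1.87 and -1.70. Without mouse 494 it was 3, namely Esr1, Prlr and Tbx3, beside 404 of 10131 genes called lower. The luminal marker sum moved with the comparison, at 8743 to 12652 in virgin and 4612 to 7453 in parous libraries, as did the progenitor marker sum, at 3136 to 4281 and 6250 to 8021. Their part in the members' difference was not tested.

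**Figure D3:**
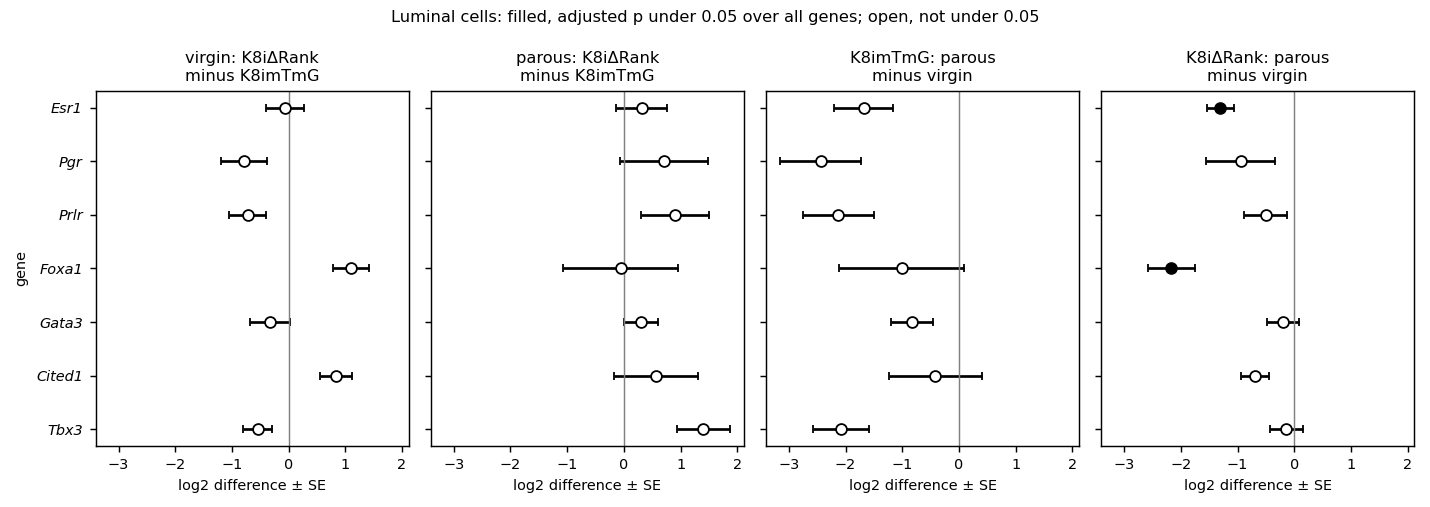
Each panel gives 1 comparison of luminal groups, with the log2 difference ± SE on the x axis and the gene on the y axis; filled points have a limma adjusted p under 0.05 over all genes tested. In K8imTmG all 7 estimates of parous minus virgin lie below 0 with wide errors, and in K8iΔRank Esr1 (-1.30) and Foxa1 (-2.17) are filled.

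In luminal cells of K8iΔRank mice the estrogen receptor and its pioneer factor were lower in parous glands. The comparison called 7.78% of 10249 genes lower, and Esr1 and Foxa1 among the members. The members' median log2 difference was -0.68, against 0.03 over all genes tested. The 3 virgin libraries were Clec2d-high and the 4 parous ones Clec2d-low, so that stage and side cannot be told apart here.

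Esr1 was 196, 206 and 292 in virgin and 83.7, 92.4, 131 and 69.5 in parous K8iΔRank luminal libraries, a log2 difference of -1.30 ± 0.24 (SE, limma adjusted p = 0.0080). Foxa1 was 975, 481 and 783 in virgin and 98.6, 175, 362 and 101 in parous libraries, a log2 difference of -2.17 ± 0.42 (SE, limma adjusted p = 0.0088). Neither gene's groups overlapped, which held downward for 13.7% of genes. Cited1 was 608, 577 and 614 in virgin and 325, 281, 602 and 351 in parous libraries, a log2 difference of -0.68 ± 0.25 (SE, limma adjusted p = 0.079), its groups overlapping through parous mouse 798. Without that mouse Cited1 was called, at -0.91 (limma adjusted p = 0.016).

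The receptors Pgr and Prlr were spread widely in parous K8iΔRank cells. Pgr was 323, 250 and 812 in virgin and 90.6, 575, 342 and 107 in parous libraries, a log2 difference of -0.94 ± 0.61 (SE, limma adjusted p = 0.30). Prlr was 3377, 3225 and 6308 in virgin and 1678, 4761, 4144 and 2093 in parous libraries, a log2 difference of -0.51 ± 0.38 (SE, limma adjusted p = 0.38). Gata3 was 1396, 1304 and 1794 against 873, 1988, 1549 and 1049 (log2 difference -0.19 ± 0.28, SE, limma adjusted p = 0.66). Tbx3 was 179, 196 and 287 against 155, 283, 258 and 131 (log2 difference -0.14 ± 0.29, SE, limma adjusted p = 0.77). Parous mice 794 and 798 were the higher pair for Pgr, Prlr, Gata3 and Tbx3, each above at least 2 of the 3 virgin values, and mice 787 and 830 the lower pair. The progenitor marker sum was 4105 to 5242 in virgin and 5985 to 8130 in parous libraries and the fibroblast marker sum 713 to 852 and 173 to 416, and their part in these differences was not tested.

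With all 15 luminal libraries in 1 fit no member was called in K8iΔRank, with Esr1 at an adjusted p of 0.10 and Foxa1 at 0.17, beside 0.751% of genes called lower. With the side as a term, which only the 5 parous K8imTmG libraries can estimate, Esr1 was at 0.069 ± 0.56 and Foxa1 at 1.48 ± 0.95 (SE), and no gene of 10249 was called (0%).

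Whether the parity difference of the genotypes differed was tested as an interaction over the 15 luminal libraries. Of these the virgin K8iΔRank libraries were all Clec2d-high, and the virgin K8imTmG and parous K8iΔRank ones all Clec2d-low. The interaction thus cannot be told apart from the side. The interaction called 12.9% of 10262 genes and none of the 7 members. An unadjusted limma p below 0.05 was found for 1 member and for 3358 of the 10262 genes. Tbx3 came closest, with a parity difference that was 1.95 ± 0.63 log2 units less negative in K8iΔRank (SE, limma adjusted p = 0.053). Prlr followed at 1.63 ± 0.82 (adjusted p = 0.18) and Pgr at 1.50 ± 1.07 (adjusted p = 0.34), and the other 4 lay between -1.16 and 0.63. Tbx3 was called in the interaction with DESeq2 on recovered reads (adjusted p = 0.033, beside 19.4% of genes), with array quality weights (0.015, beside 26% of genes), and without mouse 494, 532, 534 or 558. It was called neither with edgeR (0.064, beside 12.6% of genes) nor with the side as a term (0.17, beside 0.0487% of genes).

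In virgin luminal cells, where side and genotype coincide, the estimates of Foxa1 and Cited1 lay above and those of the other 5 members below 0 for K8iΔRank minus K8imTmG, but no member passed the test. The comparison called 0.984% of 10066 genes. An unadjusted limma p below 0.05 was found for 3 members and for 2226 of the 10066 genes. The members' median log2 difference was -0.33, against -0.03 over all genes tested. Foxa1 was at 1.10 ± 0.32 (SE, limma adjusted p = 0.092) and Cited1 at 0.84 ± 0.29 (adjusted p = 0.13). Their groups did not overlap, which held upward for 12.8% of genes. Pgr was at -0.79 ± 0.41 (SE, limma adjusted p = 0.29), Prlr at -0.73 ± 0.32 (adjusted p = 0.22), Tbx3 at -0.55 ± 0.26 (adjusted p = 0.25), Gata3 at -0.33 ± 0.36 (adjusted p = 0.62) and Esr1 at -0.07 ± 0.33 (adjusted p = 0.93), with overlapping groups. Basal marker sums moved with this comparison, at 75.0 to 91.3 in K8imTmG and 98.1 to 309 in K8iΔRank libraries, and the 4 fibroblast markers tested had a median log2 difference of 1.22, the luminal markers one of -0.67, with none of these markers called. Their part in the members' estimates was not tested. DESeq2 called Foxa1 (adjusted p = 0.017), beside 6.44% of genes, edgeR called no member, beside 1.37%, and array quality weights called Foxa1 and Cited1 higher and Tbx3 lower, beside 25% of all genes.

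In parous luminal cells K8iΔRank libraries had estimates above K8imTmG for 6 members, none of which passed the test. The comparison called 0.0991% of 10090 genes. An unadjusted limma p below 0.05 was found for 1 member and for 2009 of the 10090 genes. The members' median log2 difference was 0.57, against 0.04 over all genes tested. Tbx3 was at 1.40 ± 0.47 (SE, limma adjusted p = 0.15), Prlr at 0.90 ± 0.60 (adjusted p = 0.42), Pgr at 0.71 ± 0.77 (adjusted p = 0.63), Cited1 at 0.57 ± 0.74 (adjusted p = 0.69), Esr1 at 0.31 ± 0.44 (adjusted p = 0.72), Gata3 at 0.30 ± 0.30 (adjusted p = 0.60) and Foxa1 at -0.06 ± 1.02 (adjusted p = 0.98). All members' groups overlapped, whereas 5.49% of genes lay wholly higher and 4.24% wholly lower. DESeq2 and edgeR called no member either, beside 6.06% and 0.198% of genes. Among the Clec2d-low libraries, 4 K8iΔRank against 3 K8imTmG, the 7 estimates were all above 0, from 0.44 for Gata3 to 1.58 for Tbx3 and for Prlr, with no member and 0.416% of 10101 genes called. Without mouse 534 they ran from 0.31 for Gata3 to 1.05 for Prlr, with no member and 0.0399% of 10020 genes called. The parous K8imTmG values include mouse 534. Without it Tbx3 was at 1.02 and Esr1 at -0.05, and without mouse 494, the highest parous K8imTmG library for all members but Pgr, Foxa1 was at 0.65.

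Among the members only Foxa1 had luminal values that separated by the Clec2d side. It was 481 to 1169 in the 5 Clec2d-high luminal libraries, from virgin K8iΔRank and parous K8imTmG mice, and 16.8 to 417 in the 10 Clec2d-low ones, with no overlap. For Cited1 the ranges were 233 to 1583 and 57.8 to 602, and for Esr1 99.1 to 292 and 26.0 to 326. Pgr ran from 250.0 to 812 and from 25.6 to 936, and Prlr from 2384 to 6308 and from 464 to 7604. For Gata3 (860 to 1794 and 790 to 3223) and Tbx3 (54.3 to 287 and 24.7 to 372), as for Pgr and Prlr, the Clec2d-high range lay within the Clec2d-low one. The sides were set by Clec2d after the values were known, hold different groups and differ in depth, so these ranges are a description. The share of all genes whose luminal values separate by side was not counted. Whether Foxa1 stands out from other genes in this respect is therefore not known.

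**Figure D4:**
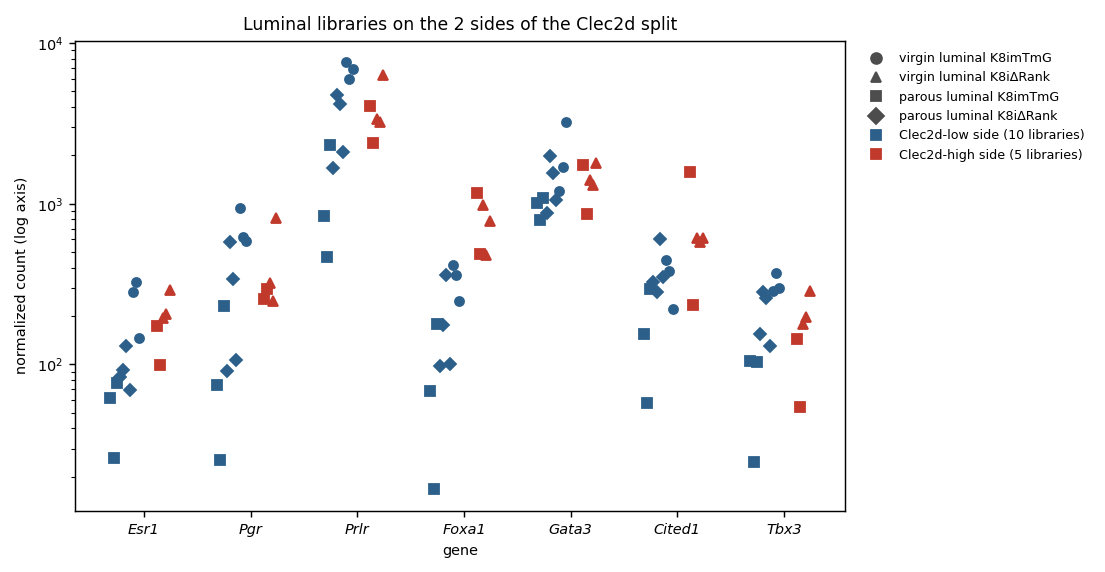
The y axis gives normalized counts on a log axis and the x axis the gene; each point is 1 of 15 luminal libraries, drawn to the left if Clec2d-low and to the right if Clec2d-high, with the shape giving the group. Of these 7 genes only Foxa1 separates, at 16.8 to 417 on the low and 481 to 1169 on the high side, and both sides overlap for the other 6. How many of all genes separate was not counted.

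Ordered by group mean, virgin K8imTmG luminal cells ranked first for Esr1 (252 ± 94.2, SD), Pgr (714 ± 193), Prlr (6805 ± 832), Gata3 (2033 ± 1059) and Tbx3 (318 ± 46.8). Virgin K8iΔRank luminal cells ranked first for Foxa1 (746.5 ± 249) and Cited1 (600 ± 20.1). The next in order usually overlapped the one above it. Among luminal groups the 1 break was in Esr1, between virgin K8iΔRank (231 ± 53.0) and parous K8iΔRank (94.1 ± 26.3). Between the luminal group of lowest mean and the basal group of highest mean the ranges did not overlap for Prlr (2016 ± 1436 in parous K8imTmG luminal and 183 ± 126 in virgin K8imTmG basal cells) and Cited1 (349 ± 115 and 26.0 ± 34.6). Foxa1 also broke there, from 184 ± 124 in parous K8iΔRank luminal to 30.9 ± 19.1 in virgin K8imTmG basal cells. These breaks compare neighbors in the order only. Parous K8imTmG luminal cells, higher by mean, reached down to 57.8 for Cited1 and 16.8 for Foxa1. The highest basal values were 77.6 and 48.8, so that the lineages overlapped for both genes. How many of all genes break in this way was not counted. For Tbx3 the order crossed the lineages, parous K8imTmG luminal cells (86.6 ± 47.1) ranking below 3 of the basal groups.

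In basal cells Esr1 was the member with a called difference. In virgin mice it was 41.7, 45.5 and 32.6 in K8imTmG and 12.7, 16.7, 21.0 and 14.0 in K8iΔRank, a log2 difference of -1.27 ± 0.33 (SE, limma adjusted p = 0.043), in a comparison that called 4.72% of 10616 genes lower. The groups did not overlap, which held downward for 13.4% of genes. Foxa1 was 48.8, 33.1 and 10.9 against 2.31, 7.44, 5.42 and 9.67, a log2 difference of -2.04 ± 0.63 (SE, limma adjusted p = 0.070). Both differences rest on few reads, with 6 to 29 Esr1 reads per K8imTmG library, and the K8imTmG libraries were Clec2d-high and the K8iΔRank ones Clec2d-low. The Esr1 call was lost when any 1 of the 7 mice was left out and with the side as a term, and Foxa1 was called when mouse 568 was left out (adjusted p = 0.049). The progenitor marker sum also moved with the comparison, at 945.5 to 1467 in K8imTmG and 2448 to 2961 in K8iΔRank basal libraries, and its part was not tested.

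In parous basal cells all 7 estimates lay above 0 in K8iΔRank, with no member and 0.906% of 10592 genes called. An unadjusted limma p below 0.05 was found for 3 members and for 2393 of the 10592 genes. All 4 K8imTmG libraries were Clec2d-high, while of the 4 K8iΔRank libraries 2 were high and 2 low. Among the Clec2d-high libraries alone no member and 0% of 10416 genes were called. DESeq2 and edgeR called no member either, beside 6.09% and 0.633% of genes. Prlr was 4.19, 42.8, 7.96 and 41.0 in K8imTmG and 26.6, 98.8, 165 and 94.7 in K8iΔRank, a log2 difference of 2.25 ± 0.69 (SE, limma adjusted p = 0.099). The K8imTmG values of 4.19 and 7.96 rested on 2 reads each. Tbx3 was at 0.82 ± 0.27 (adjusted p = 0.12) and Gata3 at 0.63 ± 0.22 (adjusted p = 0.14). Within K8iΔRank, Tbx3 was 81.7 to 109 in the Clec2d-high and 151 to 178 in the Clec2d-low libraries, against 50.8 to 91.6 in K8imTmG. Gata3 was 541 to 777 and 792 to 815 there, against 354 to 642. Prlr was 94.7 to 98.8 and 26.6 to 165, so that its sides overlapped. The part of the side was not tested further. The genotype groups overlapped for each member. The luminal marker sum moved with this comparison, at 729 to 1096 in K8imTmG and 1300 to 1405 in K8iΔRank basal libraries, as did the basal marker sum, at 12975 to 15010 and 9714 to 10877. All 7 luminal markers had estimates above 0 (median log2 difference 1.22, 1 called), and their part in the members' estimates was not tested. Across parity in K8imTmG basal cells Prlr was 260, 252 and 38.0 in virgin mice against the parous values above, a log2 difference of -3.00 ± 0.79 (SE, limma adjusted p = 0.31), and 6 of 7 estimates lay below 0. Limma called none of 10538 genes here, which is 0%. An unadjusted limma p below 0.05 was found for 4 members and for 969 of the 10538 genes. DESeq2 called 44 genes and edgeR 8, with no member among them. In K8iΔRank basal cells and in the basal interaction limma also called no gene of 10525 and 10607 (0% of each). Unadjusted limma p-values below 0.05 were found for 0 and 3 members, and for 1036 and 1082 of all genes. DESeq2 called 91 and 18 genes there, and edgeR 0 and 0. In that interaction Foxa1 was at 2.71 ± 1.12, Prlr at 2.44 ± 1.12 and Esr1 at 1.34 ± 0.43 (SE), none of them called. The virgin K8iΔRank basal libraries were all Clec2d-low, the parous ones 2 high and 2 low, and all K8imTmG basal libraries Clec2d-high. Neither the K8iΔRank basal parity difference nor the basal interaction can thus be fully told apart from the side.

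Across the 15 luminal libraries, Pearson's r of log2(normalized count + 1) over the members' 21 pairs ran from 0.40 (Gata3 with Cited1) to 0.96 (Pgr with Prlr), with a median of 0.75. Without mouse 534 they ran from 0.20 (Foxa1 with Tbx3) to 0.94 (Pgr with Prlr), with a median of 0.63. Esr1 was tied to Prlr at 0.87 and to Pgr and Foxa1 at 0.85, and Foxa1 to Cited1 at 0.86, and these were 0.79, 0.76, 0.75 and 0.76 without mouse 534. The libraries share groups, sides and marker content, so that r describes these libraries only.

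Among 5067 other genes with a mean of at least 50 in luminal cells, those most like each member by r were found, with r between 0.83 (Fgfr2 with Cited1) and 0.99 (Gm16485 with Pgr) once mouse 534 was left out. For Prlr they were Slc12a2 (0.98), a sodium-potassium-chloride transporter, Stc2 (0.97), a secreted stanniocalcin, and Dipk1a (0.97). For Esr1 they were Adam10 (0.95), Marcks (0.94) and Aldh3a2 (0.94). Dnajc12, a cochaperone, was first for both Foxa1 (0.97) and Cited1 (0.91), followed by Cd200 and Pcyox1 (0.97 each) for Foxa1 and by Fgfr2 and Prrg2 (0.91 each) for Cited1. Gata3 was followed by Acot13, Gcc2 and Dstyk (0.92 each), and Tbx3 by Gcnt2 (0.93), Cemip2 (0.92) and Syt7 (0.92).

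For Pgr the most similar was Gm16485 (0.99), ahead of Prlr and Glul (0.96 each). Gm16485 is annotated as a transcript still to be checked by experiment, at chr9:8971792-8975774, on the same strand as Pgr and starting 3180 bases past its annotated end. It was 145 to 229 in virgin K8imTmG, 55.8 to 267 in virgin K8iΔRank, 3.97 to 77.3 in parous K8imTmG and 18.3 to 164 in parous K8iΔRank luminal libraries. Whether its 3′ tags come from transcripts of Pgr was not tested, and they are not part of the Pgr values.

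Of 13 other genes linked to hormone-sensing cells, all in the table, 11 were called higher in luminal cells, beside 28.7% of genes. Their list had a median log2 difference of 4.21. Areg (amphiregulin) was at 4.96, Wnt4 at 4.48 and Spdef at 4.23, and Greb1 was lower (-2.49). In K8imTmG luminal parity 1 of the 13 was called, beside 1.14% of genes called lower. This was Greb1, an estrogen target, at -3.94 ± 0.75 (SE, limma adjusted p = 0.037), and the list's median was -1.77. In K8iΔRank luminal parity, where stage and side cannot be told apart, 4 were lower, beside 7.78% of genes called lower. These were Greb1 at -3.12, Areg at -1.25, Ly6a at -1.34 and Wnt4 at -0.78. None was higher, and the list's median was -1.02. In the virgin and parous luminal genotype comparisons and the luminal interaction none was called, beside 0.984%, 0.0991% and 12.9% of genes.

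Of 8 genes of prolactin signaling, 5 were called higher and 2 lower in luminal than in basal cells, beside 28.7% and 27% of genes. Their median log2 difference was 0.67. The range was from -2.04 to 4.94, the highest being Elf5, an alveolar factor downstream of the receptor. In K8iΔRank luminal parity Stat5a (-1.33) and Socs3 (-1.96) were lower and none higher. Of 14 coregulators, Nrip1, a corepressor, was lower (-1.32) and Tfap2c higher (1.34) in K8imTmG luminal parity, 1 was higher in K8iΔRank luminal parity, and 3 differed in the interaction, among them Nrip1 (1.36) and Ep300 (1.12). Of 12 relatives of the members 4 were in the table, and of these Cited2, a relative of Cited1, was higher in K8imTmG luminal parity (1.90) and differed in the interaction (-1.82). Of 22 other nuclear receptors 19 were in the table and none was called in K8imTmG luminal parity. In K8iΔRank luminal parity 1 of them, Pgrmc1, was lower (-1.02) and 4 higher, among them Rxra (1.09), Vdr (0.80) and Nr4a2 (2.40), and the interaction called Rxra (1.35) and Rxrb (1.18). Of 8 receptor chaperones, none was called in either luminal parity comparison, and Hspa8 differed in the interaction (-1.26). Over all genes tested, K8imTmG luminal parity called 1.06% higher and 1.14% lower, K8iΔRank luminal parity 8.25% and 7.78%, and the luminal interaction called 12.9%. The calls in K8iΔRank luminal parity and in the interaction cannot be told apart from the Clec2d side.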

How the data were processed

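RNA of sorted mammary cells was made into QuantSeq 3′ FWD libraries with 6-base molecular identifiers (RIN 2.5 to 8.6) and read to 86 bases. By the study's methods and the submitters' processing notes, reads were trimmed with BBDuk, their identifiers extracted with UMI-tools, aligned to GRCm39 with Bowtie2 and then deduplicated with UMI-tools. The deposited values are a signal, namely counts per gene that the authors divided by DESeq2 size factors, kept where genes passed 10 in 25% of samples. 100% of values came out as whole reads within 0.001 of a read. Depth was 340445 to 3130419 reads and sets the precision, counting error only being covered by the floor of 3 reads. No column was left unmapped.

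Groups came from the labels. Limma 3.58.1 with trend (R 4.3.3) was fitted on log2(normalized count + 1) to all genes above 10 in 25% of the libraries compared, 2 groups at a time, with all 30 libraries for lineage and all 15 of a lineage for interactions, and p-values were adjusted by Benjamini-Hochberg, called under 0.05. A log2 difference with a pseudocount understates changes of low genes. Pairing comes from the labels, 13 mice giving both lineages, and mouse was a block in an alternative. Other alternatives were pseudocounts of 0.5 and 4, no filter, array quality weights, genes with a mean of 50 or more only, quantile normalization, DESeq2 1.42.0 and edgeR 4.0.16 on recovered reads, all libraries of a lineage in 1 fit, the side of the Clec2d split (set at 30 normalized counts) as a term or each side alone, and leaving out each mouse. Leaving mouse 534 out of the Clec2d-low side was added after seeing the data. The fits were tested on simulated counts that gave every gene the same dispersion, without a Clec2d split or a mouse apart. That test does not show how the fits behave under the spread seen here. Replicates differed by more than sampling noise, with a chi-square per degree of freedom of 2.67 to 39.8 over 43 pairs within groups.

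Members, gene lists (hormone-sensing genes, relatives, nuclear receptors, coregulators, chaperones, prolactin signaling and cell markers) and tests were chosen with earlier results of these data known. Named genes are the members, the 3 genes most like each, and from each list up to 4 called genes per comparison, lowest p first. Greb1 in the lineage comparison was named after its value was seen. Some listed genes are not reported here. Coordinates come from GENCODE vM39 on GRCm39.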

Additional observations from a re-analysis of the deposited data

Results flagged for a closer look

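A Dixon test of the highest and lowest library was run for the 7 genes in the 5 groups of 4 or 5 libraries. Of these 35 tests chance passes about 1 in 20, and 5 values stood apart. The tests share libraries and used normalized counts without logs, so that this rate is a rough guide only. In parous basal K8imTmG cells mouse 534 had Foxa1 at 37.4, against 2.09 to 4.55 in the other 3, and Cited1 at 77.6, against 4.19 to 11.9. In the same group mouse 558 had Esr1 at 26.2, against 18.7 to 19.9. In parous basal K8iΔRank cells mouse 830 had Gata3 at 541, against 777 to 815. In parous luminal K8imTmG cells mouse 494, which was Clec2d-high, had Cited1 at 1583, against 57.8 to 296 in the other 4.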

How the results depend on the processing

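With mouse as a block the lineage comparison called the same 7 of 7 members, and within Clec2d-low libraries 4, beside 28.1% and 14.9% of genes called higher. Virgin luminal genotype called 0, but 3 with array quality weights and 1 with DESeq2, beside 25% and 6.44% of genes. K8imTmG luminal parity called 0 in the main fit, and the genes called lower are given in brackets for the others. It called 1 with a mean of at least 50 (114 of 5099 genes) and with quantile normalization (104 of 10279). Weights called 7 (20.3%), DESeq2 4 (4.95%), all luminal libraries in 1 fit 3 (4.57%) and the side as a term 5 (8.62%). Within Clec2d-low libraries 4 were called (6.80%), of which 1 was called without mouse 534 (0.386%). With 1 mouse left out 0 to 3 were called, the 3 without mouse 494 (404 of 10131). K8iΔRank luminal parity called 2, beside 7.78% of genes called lower. It called 0 with all luminal libraries in 1 fit (0.751% lower) and with the side as a term (0% of genes). With 1 mouse left out it called 2 to 3, the 3 without mouse 798 (774 of 10177 genes lower). Virgin basal genotype called 1, beside 4.72% of genes called lower, but 0 without a filter and with the side as a term. It called 2 with quantile normalization (456 of 10616 genes lower), DESeq2 (6.91% lower) and edgeR (4.85% lower). With 1 mouse left out it called 0 to 1, the 1 without mouse 568 (206 of 10482 genes lower). With a mean of at least 50 it called 0 of the 4 members tested, Esr1 and Foxa1 not being among them. Parous basal genotype called 0, but 3 higher with weights, beside 11.7% of genes called higher. The luminal interaction called 0, beside 12.9% of genes. It called 1 with a pseudocount of 4 (1384 of 10262 genes), a mean of at least 50 (1022 of 5068), quantile normalization (1291 of 10262) and DESeq2 (19.4%). Weights called 2 (26%). With 1 mouse left out 0 to 1 were called, beside 1242 to 1490 genes where 1 was called.

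Some log2 differences turned sign. With the side as a term, virgin luminal genotype gave Foxa1 -2.54 and Cited1 -1.29, parous luminal genotype Foxa1 1.40, the same as within Clec2d-low libraries (0.52 without mouse 534), the luminal interaction Foxa1 3.94 and Cited1 2.71, and K8iΔRank luminal parity Esr1 0.069, Pgr 0.89, Prlr 1.18, Foxa1 1.48, Gata3 0.17, Cited1 1.44 and Tbx3 0.30. In luminal fits that term is estimated from 5 parous K8imTmG libraries alone. Quantile normalization gave Foxa1 0.0031 in parous luminal genotype and Prlr 0.38 and Gata3 0.26 in K8iΔRank luminal parity. Weights gave Foxa1 1.17 in parous luminal genotype and Cited1 0.61 in the interaction. DESeq2 and edgeR gave Cited1 -0.28 and -0.27 in parous luminal genotype, and Foxa1 0.19 and 0.18 and Cited1 0.43 and 0.43 in K8imTmG luminal parity. With 1 mouse left out, Esr1 ran from -0.42 to 0.16 and Gata3 from -0.65 to 0.065 in virgin luminal genotype, Foxa1 from -0.87 to 0.65 and Esr1 from -0.054 to 0.62 in parous luminal genotype, Cited1 from -1.08 to 0.11 in K8imTmG luminal parity and from -0.79 to 0.39 in the interaction, and Tbx3 from -0.32 to 0.064 in K8iΔRank luminal parity. The cause was not tested for any of these. Basal values of Foxa1, Cited1 and Prlr rest on few reads, so that small differences were not detectable there.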
